A study of Mus musculus with 2 samples.

Results

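The 75 histone genes described here were 75 of the 32285 genes listed in the count tables. They were taken by symbol and fell into 2 kinds. The 67 cluster genes were every listed symbol starting with Hist1h, Hist2h, Hist3h or Hist4h, the replication-dependent histone genes, and the other 8 genes were H2afx, H2afz, H2afv, H2afy, H3f3a, H3f3b, H1f0 and H1fx, which encode histone variants. The cluster genes comprised 6 genes of the linker histone H1, 18 of H2A, 18 of H2B, 12 of H3 and 13 of H4, and 54 of the 67 lay on chromosome 13. The set as a whole was selected on the ratios of sonKD over control in these same libraries, since it was proposed with earlier results known in which Hist1h2ap and Hist1h2ae ranked high. Those ratios are therefore given as a description, and no test was made.

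The cells were E14 mouse embryonic stem cells of the 129/Ola background, grown in 15% serum with leukaemia inhibitory factor at 1000 U/mL. One culture, named control, received control siRNA (small interfering RNA) in Lipofectamine2000, and the other, named sonKD, with siRNA against Son, whose product is an RNA-binding protein of nuclear speckles with a role in splicing. Both were detached 24 hours after transfection, frozen, thawed, sorted for exclusion of the dye 7-AAD and barcoded with 10x Genomics Single Cell 3′ v3 chemistry. Each group held 1 library, so no difference has a replicate check, and the library and the knockdown cannot be told apart. All intervals are at 95% and cover counting error only.

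Histones package DNA into nucleosomes: pairs of H2A, H2B, H3 and H4 form the core, and H1 binds the linker DNA. Replication-dependent histone genes lack introns for the most part, are transcribed in S phase, and their main messenger RNAs end at a conserved stem-loop bound by the protein Slbp, with no poly(A) tail. Variant genes are for the most part expressed through the whole cycle and give polyadenylated messenger RNAs. The variant H2afx also holds the stem-loop sequence, shown further on. The chemistry used here captures RNA by its poly(A), so that a cluster gene is seen only through RNA that is polyadenylated or holds an internal run of A. Each gene is therefore compared with itself across libraries, cell cycle states and droplets. Such a ratio describes captured RNA. Whether the captured share of a gene's RNA was the same on both sides of a ratio was not measured. Where a share of UMIs over several genes is given, it is a share of what was captured and not of the histone RNA in the cell.

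A cell was a barcode with at least 2500 UMIs (unique molecular identifiers, each marking 1 captured molecule), 1000 or more genes and no more than 10% mitochondrial UMIs. This gave 4978 control and 2731 sonKD cells, with 40902904 and 32032551 UMIs and medians of 7738 and 11612 UMIs per cell, and 2 barcodes were cells in both libraries. Levels are CPM, the counts of a gene summed over the cells of a library and scaled to a common library total. Son itself stood at 169 CPM in control and 106 in sonKD, a log2 ratio of -0.67 (-0.73 to -0.61). All 10 embryonic stem cell markers were detected, with sums of 8643 and 9400 CPM, against 3.45 and 3.93 CPM for 8 fibroblast or feeder markers, of which 3 and 4 were at 0. Cytosolic ribosomal protein genes took 20.6% of the UMIs in control cells and 24.0% in sonKD cells.

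The stem-loop is shown because it separates the cluster genes from nearly all others. The 16 bases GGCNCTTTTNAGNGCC, read on the gene strand in the 3′ UTR of the longest coding transcript of GENCODE M21 (GRCm38), were found in 43 of 21901 coding genes, or 0.196%. Of the 43, 42 were members: 41 cluster genes and the variant H2afx. The 4 bases of the loop lie between 2 arms of 6 bases, printed in capitals, with 5 bases of flank where the transcript holds them, and all 6 pairs of the stem match in each gene shown.
Hist1h2ap, chr13:21833029-21833044, minus strand: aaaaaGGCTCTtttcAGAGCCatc
Hist1h2ae, chr13:23570668-23570683, minus strand: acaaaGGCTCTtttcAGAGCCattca
Hist1h3e, chr13:23561903-23561918, minus strand: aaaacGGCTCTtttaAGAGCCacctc
Hist1h4d, chr13:23581950-23581965, plus strand: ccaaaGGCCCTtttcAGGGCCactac
Hist1h1e, chr13:23621782-23621797, minus strand: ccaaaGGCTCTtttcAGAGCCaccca
H2afx, chr9:44335240-44335255, plus strand: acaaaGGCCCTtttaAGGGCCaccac
The form with GGCTCT and AGAGCC as arms and TTTC as loop occurred in 25 of the 42 members, and the form with GGCCCT and AGGGCC around the same loop in 7. The annotated transcript of 20 cluster genes ended within 100 bases of the stem-loop, and that of 21 went further. Of the other cluster genes, 11 had a 3′ UTR without these letters and 15 had fewer than 20 bases of 3′ UTR in the annotation, among them Hist1h1b. Absence of a match says only that these letters are not in that stretch.

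Among members with a mean of 10 CPM or more, Hist1h2ap and Hist1h2ae had the highest and the next highest ratio of sonKD over control, and both carry a run of A next to the stem-loop in the 3′ UTR. The run is in capitals below, with 6 bases of flank.
Hist1h2ap: gaaaagAAAAAAAAAAAAggctct
Hist1h2ae: tctcgtAAAAAAAAcaaagg
The run starts 27 bases after the stop codon in Hist1h2ap, directly before the stem-loop, and 21 bases after it in Hist1h2ae. Of the 75 genes, 9 held a run of at least 8 A, the others being Hist1h2ao, Hist1h1d, Hist1h2be, Hist1h2ac, Hist1h2bc, H3f3b and H2afy. The log2 ratios of sonKD over control in these 9 ran from -0.53 in Hist1h2ac to 2.39 in Hist1h2ap, and H3f3b, with a run of 12, stood at -0.14. The part of these runs in the counts was not tested.

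Promoters are shown for Hist1h2ae, which had the highest ratio of the genes at 10 CPM with an entry, for Hist1h1b, which gave most cluster UMIs, and for 2 variants. The RefSeq promoters (GRCm38.p6, 250 bases before to 50 after the start) matched 68 of the 75 genes; Hist1h2ap, Hist1h2bc and H2afx had no entry. Capitals mark CCAAT, the octamer ATTTGCAT, TTCGCGC (an E2F-type site) and AAACACA (an element known from H1 genes) on either strand, and TATAAA on the gene strand.
Hist1h2ae, chr13:23571171-23571470, minus strand: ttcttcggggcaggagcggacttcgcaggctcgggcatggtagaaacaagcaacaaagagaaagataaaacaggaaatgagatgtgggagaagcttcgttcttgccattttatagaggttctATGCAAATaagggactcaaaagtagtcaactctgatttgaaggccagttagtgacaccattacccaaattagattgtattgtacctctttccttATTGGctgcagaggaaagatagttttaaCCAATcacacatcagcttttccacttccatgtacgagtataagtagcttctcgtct
Hist1h1b, chr13:21780576-21780875, minus strand: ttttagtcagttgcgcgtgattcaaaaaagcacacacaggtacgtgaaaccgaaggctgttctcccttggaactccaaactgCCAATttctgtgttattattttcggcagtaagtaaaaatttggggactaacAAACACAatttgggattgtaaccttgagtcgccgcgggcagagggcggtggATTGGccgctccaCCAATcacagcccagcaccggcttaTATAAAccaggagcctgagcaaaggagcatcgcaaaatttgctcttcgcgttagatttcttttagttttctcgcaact
H2afz, chr3:137864237-137864536, plus strand: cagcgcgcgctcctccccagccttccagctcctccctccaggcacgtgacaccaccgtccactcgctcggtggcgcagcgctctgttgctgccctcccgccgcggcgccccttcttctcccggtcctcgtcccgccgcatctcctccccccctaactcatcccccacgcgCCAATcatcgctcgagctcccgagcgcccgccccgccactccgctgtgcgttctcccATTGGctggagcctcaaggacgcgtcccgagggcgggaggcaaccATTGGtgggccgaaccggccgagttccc
H3f3b, chr11:116024455-116024754, minus strand: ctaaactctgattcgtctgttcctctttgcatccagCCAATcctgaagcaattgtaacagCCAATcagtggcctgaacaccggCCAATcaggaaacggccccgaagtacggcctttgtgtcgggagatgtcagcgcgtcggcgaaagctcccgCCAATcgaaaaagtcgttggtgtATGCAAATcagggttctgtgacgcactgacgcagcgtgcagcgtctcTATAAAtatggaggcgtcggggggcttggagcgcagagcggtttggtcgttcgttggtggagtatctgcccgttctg
CCAAT stood in 52 of 61 cluster promoters, or 85.2%, against 37.9% of all 27025 promoters of the same length. All 6 promoters of H1, 17 of H2A, 16 of H2B and 10 of H3 held it, but 3 of 12 of H4. TATAAA was found in 49.2% of the cluster promoters against 8.88% of all, the octamer in 21.3% against 1.75%, and TTCGCGC in 18.0% against 1.59%. The octamer and TTCGCGC were found in cluster promoters of H2A and H2B and in none of H1, H3 or H4, whereas AAACACA was found in 5 of 6 H1 promoters against 7.14% of all. The promoter of the variant H3f3b held 4 copies of CCAAT, an octamer and a TATA box, and that of H2afz held 3 copies of CCAAT and neither of the others. Of the 7 variant promoters with an entry, 4 held CCAAT, and only that of H3f3b held TATAAA or the octamer. TTCGCGC was found in 0 of the 7 and AAACACA in 1. A match is a description of letters and not evidence of binding.

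The 2 kinds of gene differed in direction between the libraries. The 67 cluster genes summed to 1402 CPM in control and 1999 in sonKD, a log2 ratio of 0.51 (0.50 to 0.53). The 8 variants summed to 6585 and 5739 CPM, a log2 ratio of -0.20 (-0.21 to -0.19). Cluster genes made up 17.6% of the histone UMIs in control and 25.8% in sonKD. Over the 8063 genes whose mean reached 10 CPM the median log2 ratio was -0.12 (5th to 95th percentile -0.40 to 0.25), so the variant sum lay slightly below the typical gene and the cluster sum above it. Of the difference of 597 CPM in the cluster sum, Hist1h1b gave 233, Hist1h2ap 120 and Hist1h2ae 117. Without Hist1h2ap and Hist1h2ae the cluster sum was 1304 CPM in control and 1664 in sonKD, a log2 ratio of 0.35 (0.33 to 0.37).

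Of the 67 cluster genes, 11 reached 10 CPM as the mean of both libraries, as did all 8 variants, and 4 had no UMI in the cells of either. Past 1.5-fold, 4 of these 11 cluster genes were higher in sonKD, namely Hist1h2ap, Hist1h2ae, Hist1h3e and Hist1h4d, and 0 were lower, while no variant passed in either direction. Hist1h3e, at 7.68 CPM in control, reached the mean of 10 CPM only through sonKD, where it was high, so its place in this count follows in part from the minimum. Across all 8063 genes at that level, 0.992% were higher and 1.23% lower by the same rule. The set was proposed from this comparison, so the counts stand beside these shares as a description. Genes other than members with a longest coding transcript of at most 1000 bases, 471 in all, had a median log2 ratio of 0.08 with 8.28% past 1.5-fold higher, and the 7391 longer ones a median of -0.13 with 0.325%; the part of transcript length in the cluster ratios was not tested.

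**Figure D1:**
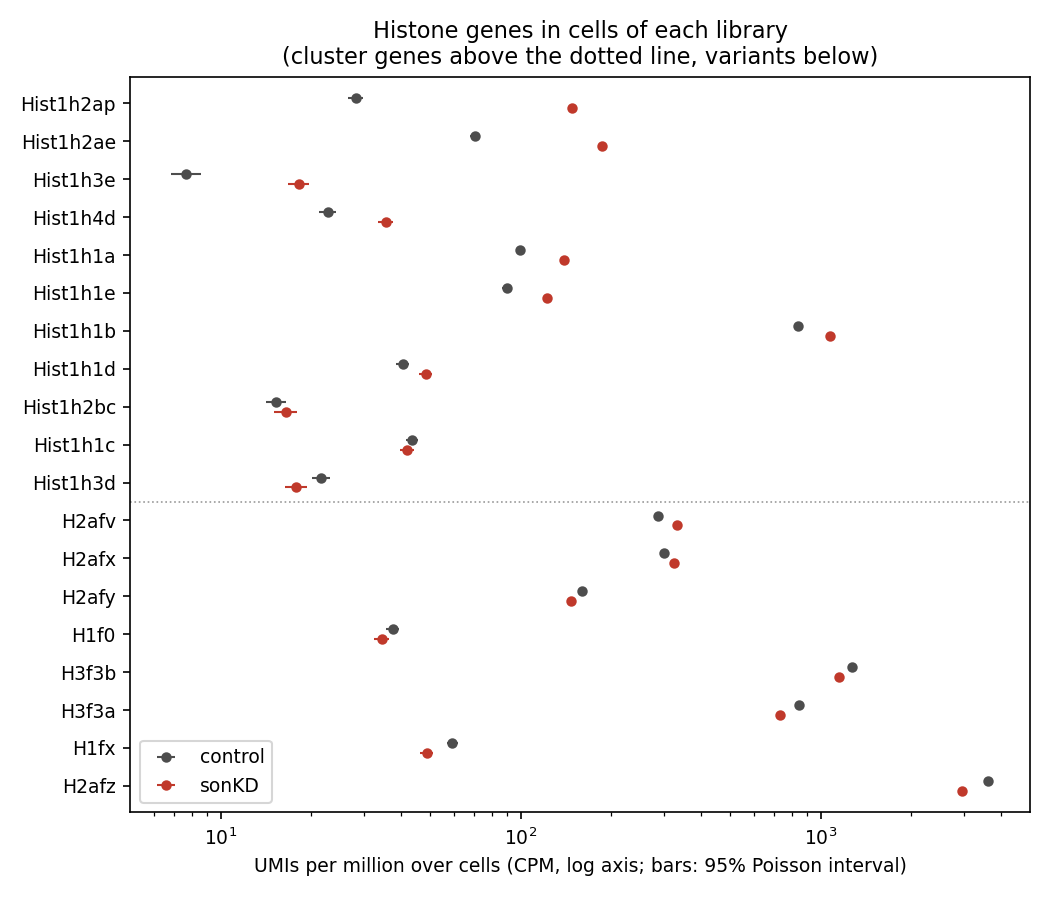
Levels of the 19 histone genes whose mean reached 10 CPM, in CPM on a log axis, for control (grey) and sonKD (red); bars are exact Poisson intervals. Hist1h2ap moves from 28.3 to 148 CPM, whereas 6 of the 8 variants sit slightly lower in sonKD, as do 6039 of all 8063 genes.

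The linker histone genes gave most of the cluster signal, 79.3% of the cluster UMIs in control and 71.2% in sonKD, and their sum was 1111 CPM in control and 1424 in sonKD (log2 ratio 0.36, 0.34 to 0.38). Hist1h1b, which encodes H1.5, stood at 838 CPM in control and 1071 in sonKD, a log2 ratio of 0.35 (0.33 to 0.38). It alone held 59.8% of the cluster UMIs in control and 53.6% in sonKD. Hist1h1a, for H1.1, was at 99.4 and 139 CPM (0.48, 0.42 to 0.55), and Hist1h1e, for H1.4, at 89.8 and 122 CPM (0.45, 0.38 to 0.51). Hist1h1d, for H1.3, was at 40.4 and 48.3 CPM (0.26, 0.15 to 0.36). Hist1h1c, for H1.2, was the exception among these 5, with 43.4 CPM in control and 41.9 in sonKD and an interval that spans 0 (log2 ratio -0.05, -0.15 to 0.05). The annotated transcript of Hist1h1e overlaps Hist1h2be on the same strand and shares all of the last 300 bases compared with it, so the counts of these 2 genes are uncertain.

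H2A was the family with the highest ratio of sums, from 124 CPM in control to 376 CPM in sonKD over its 18 genes, a log2 ratio of 1.60 (1.55 to 1.64). Most of both sums came from Hist1h2ap and Hist1h2ae, whose high rank was known when the set was proposed. The place of the family by sum therefore follows in part from that choice. Hist1h2ap had 1156 UMIs in control cells and 4748 in sonKD cells, or 28.3 and 148 CPM, a 5.24-fold difference (log2 2.39, 2.30 to 2.48). Hist1h2ae had 2871 and 5989 UMIs, or 70.2 and 187 CPM, a 2.66-fold difference (log2 1.41, 1.35 to 1.48). Both encode core H2A. Among cells thinned to 4000 UMIs, Hist1h2ap was seen in 10.2% of 4710 control cells (9.36 to 11.1, exact Clopper-Pearson) and in 39.7% of 2622 sonKD cells (37.8 to 41.6). No thinned cell held more than 3 UMIs of it in control or 5 in sonKD. Unthinned, the shares were 19.6% and 67.0%. Hist1h2ae was seen in 23.5% and 46.8% of thinned cells. These libraries hold no cell type that should lack histone RNA, and the level of each gene in near-empty droplets is given further on. The last 300 bases of Hist1h2ap are shared in full with other genes, the closest being Hist1h2ao, which had 5 and 6 UMIs; how reads that match several genes were counted is not given in the sources used here, so the assignment among the H2A copies is uncertain.

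H2B did not follow H2A. Its 18 genes summed to 67.3 CPM in control and 70.8 in sonKD, with an interval that reaches 0 (log2 ratio 0.07, -0.01 to 0.15). Hist1h2bc, the only H2B gene at 10 CPM, was at 15.3 and 16.5 CPM (0.10, -0.06 to 0.27). H2A and H2B dimerise in the nucleosome, and their genes often stand in divergent pairs.

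The H3 genes summed to 50.05 CPM in control and 59.3 in sonKD (log2 ratio 0.25, 0.15 to 0.34), and the 2 H3 genes at 10 CPM differed in sign. Hist1h3e was at 7.68 CPM in control and 18.2 in sonKD (1.25, 1.04 to 1.45), while Hist1h3d was at 21.6 and 17.9 CPM (-0.28, -0.43 to -0.12). Hist1h3d was the one cluster gene at 10 CPM whose interval lay wholly below 0. All compared bases at the end of Hist1h3e are also in Hist1h3f, which had 83 and 155 UMIs, so these 2 cannot be separated with certainty. The H4 genes summed to 48.9 and 68.6 CPM (0.49, 0.40 to 0.58). Hist1h4d, which encodes the same core histone as the other H4 genes, was at 22.7 CPM in control and 35.6 in sonKD (0.65, 0.52 to 0.77).

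The remaining 56 cluster genes lay under 10 CPM. With the minimum lowered to a mean of 1 CPM, 47 cluster genes were left, with a median log2 ratio of 0.21. The median was -0.10 over the 13140 genes at that level. Of the 47 cluster genes, 32 lay above 0, as did 4035 of the 13140. By family the medians were 0.35 for 5 H1 genes, 0.64 for 10 H2A genes, 0.04 for 15 H2B genes, 0.05 for 9 H3 genes and 0.36 for 8 H4 genes. Chosen after their values were seen, Hist1h2ab went from 136 to 345 UMIs (log2 ratio 1.70), Hist2h2ac from 194 to 302 (0.99) and Hist3h2a from 85 to 42 (-0.66), so H2A genes were found on both sides. A total of 36 cluster genes share over 50% of the last 300 bases, in 31-base words, with another gene, and 17 share none.

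Of the 8 variants, 6 were slightly lower in sonKD and H2afv and H2afx were higher. Over all 8063 genes at 10 CPM, 6039 were lower in sonKD. The median log2 ratio was -0.13 for the variants and -0.12 for all genes, so as a group the variants lay near the typical gene. H2afz, for H2A.Z, which is found at promoters and is needed in early embryos, held 55.0% of variant UMIs in control and 51.7% in sonKD. It was at 3618 CPM in control and 2964 in sonKD (log2 ratio -0.29, -0.30 to -0.28). H3f3a and H3f3b both encode H3.3, which is deposited outside replication. H3f3a was at 849 and 732 CPM (-0.21, -0.24 to -0.19), and H3f3b at 1273 and 1155 CPM (-0.14, -0.16 to -0.12). The second H2A.Z gene, H2afv, went the other way, from 287 CPM in control to 333 CPM in sonKD (0.21, 0.18 to 0.25). H2afx, for the H2A.X that is phosphorylated at DNA breaks, was at 300 and 324 CPM (0.11, 0.07 to 0.15). H2afy, for macroH2A1, was at 161 and 148 CPM (-0.12, -0.17 to -0.07). The replacement linker histone H1f0 was at 37.5 and 34.4 CPM (-0.12, -0.24 to -0.01), and H1fx at 59.3 and 48.6 CPM (-0.29, -0.38 to -0.19). H3f3b, H2afy and H1f0 thus lay close to the median of all genes, and H2afv and H2afx above it.

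The cell cycle state was scored with lists of 39 S phase and 51 G2/M genes that hold no histone gene and none of the histone pathway genes below. Cells were first thinned to 4000 UMIs, which left out 268 control and 109 sonKD cells. The call was S for 2682 control cells (56.9%) and 1451 sonKD cells (55.3%), G2/M for 1945 (41.3%) and 1042 (39.7%), and G1 for 83 (1.76%) and 129 (4.92%). Of all scored cells, 835 and 489 had S and G2/M scores within 0.05 of each other, so the states are ranges of a continuous score. How many cells lay near the boundary of the G1 call was not measured. That call needs both scores to be negative, so cells low in both scores can still be called S or G2/M. The share called G1 is therefore no measure of the share of cells in G1. The sum of S cells and that of G2/M cells were compared within each library.

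Cluster genes were higher in cells called S than in cells called G2/M in both libraries. Their sum was 1590 CPM in S and 1231 CPM in G2/M in control (log2 ratio 0.37, 0.34 to 0.39), and 2302 and 1730 CPM in sonKD (0.41, 0.39 to 0.44). In cells called G1 it was 537 CPM in control and 709 in sonKD. The variant sum was nearly level between S and G2/M, at 6653 and 6658 CPM in control and 5774 and 5869 CPM in sonKD, and lower in G1, at 4241 and 3789 CPM. The few G1 cells were also shallower and richer in mitochondrial RNA, with medians of 5183 and 6722 UMIs and of 5.55% and 6.51% mitochondrial UMIs, against 3.55% and 4.01% in S; the part of depth and RNA quality in the G1 levels was not tested. The median S cell held 6 cluster UMIs per 4000 in control and 8 in sonKD, the median G2/M cell 4 and 6, and the median G1 cell 1 in both.

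Summed by family, the S over G2/M ratio was highest in H1 and next in H2A in both libraries, and these sums rest on a few abundant genes. The H1 sum was 1278 CPM in S and 959 CPM in G2/M in control (0.41), and 1666 and 1207 CPM in sonKD (0.47). The H2A sum was 138 and 111 CPM in control (0.31), and 431 and 327 CPM in sonKD (0.40). The H2B sum stood at 0.13 (0.02 to 0.24) in control and 0.18 (0.06 to 0.31) in sonKD. The H3 sum showed no such excess in either library, at 50.2 and 50.7 CPM in control and 59.9 and 60.2 CPM in sonKD. H4 had an S over G2/M log2 ratio of 0.22 (0.09 to 0.35) in control and -0.01 (-0.13 to 0.12) in sonKD, and the difference between the libraries was not tested. By gene, at a mean of 1 CPM, the order differed: in control the median was 0.39 for 7 H4 genes, 0.30 for 5 H1 genes and 0.05 for 10 H2A genes, of which 4 lay below 0. In sonKD it was 0.31 for 11 H2A genes, of which 3 lay below 0, 0.30 for 5 H1 genes and 0.22 for 9 H4 genes.

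By gene, the 5 highest S over G2/M log2 ratios in control among cluster genes at 10 CPM were those of Hist1h2ap, Hist1h1b, Hist1h1a, Hist1h2ae and Hist1h2bc. Hist1h2ap was at 32.9 CPM in S and 23.7 CPM in G2/M in control (0.48, 0.30 to 0.65), and at 171 and 127 CPM in sonKD (0.43, 0.34 to 0.52). Hist1h1b was at 976 and 709 CPM in control (0.46, 0.43 to 0.49), and at 1268 and 893 CPM in sonKD (0.51, 0.47 to 0.54). Hist1h1a stood at 0.43 (0.33 to 0.52) in control and 0.52 (0.43 to 0.61) in sonKD. Hist1h2ae stood at 0.38 (0.27 to 0.49) and 0.43 (0.35 to 0.51). Hist1h2bc had the widest intervals of these genes, 0.33 (0.09 to 0.57) in control and 0.60 (0.33 to 0.88) in sonKD, and on thinned counts its control value was 0.0108 (-0.32 to 0.35). At the other end, Hist1h3e, Hist1h3d and Hist1h1c had control intervals that include 0. Past 1.5-fold higher in S were 0 of the 10 cluster genes at 10 CPM in control, where 0.0369% of all genes passed, and 1 of 13 in sonKD, Hist1h2bc, where 0.0504% passed. None was past 1.5-fold lower, against 0.836% of all genes in control and 0.806% in sonKD. Between the 5th and 95th percentiles, S over G2/M log2 ratios of all genes in control ran from -0.30 to 0.18.

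**Figure D2:**
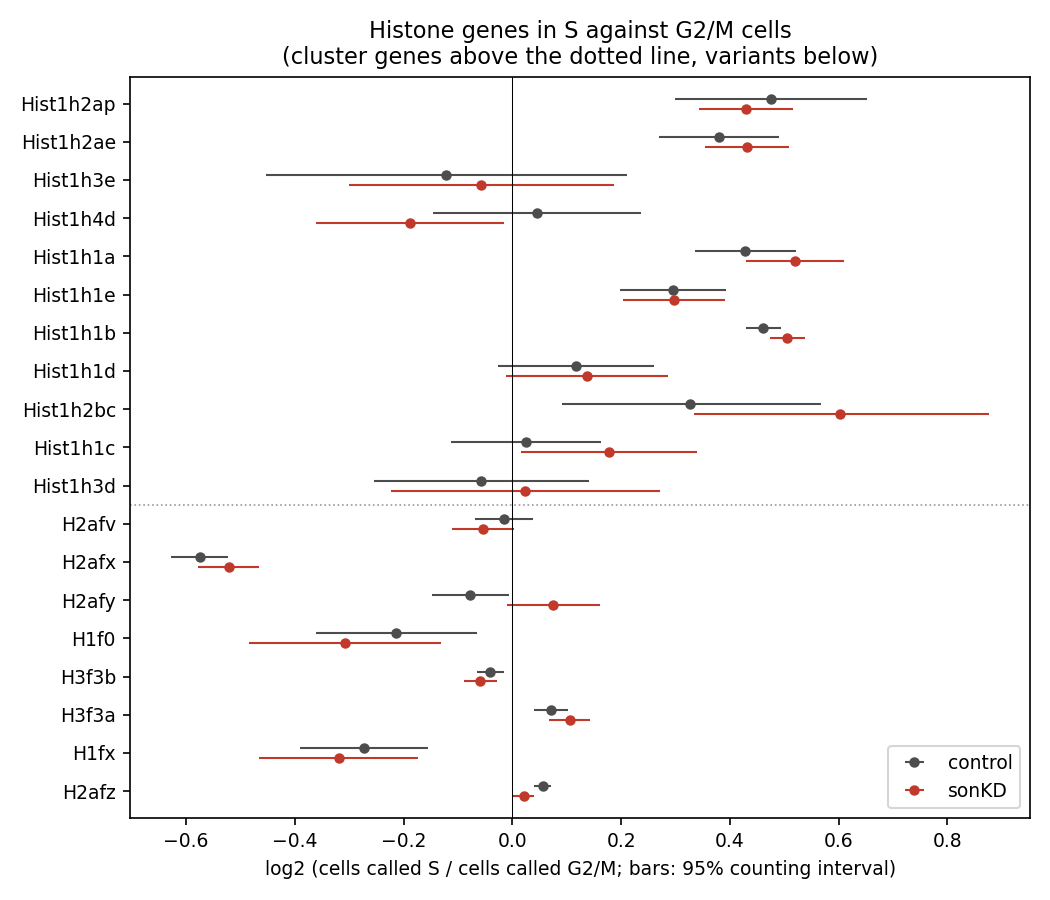
Log2 ratio of cells called S over cells called G2/M for the 19 histone genes at 10 CPM, in control (grey) and sonKD (red), with 95% counting intervals. Hist1h2ap, Hist1h2ae, Hist1h1a, Hist1h1e, Hist1h1b and Hist1h2bc lie above 0 in both libraries, and H2afx, H1fx and H1f0 below 0 in both.

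H2afx differed from the other variants by a clear excess in G2/M. It was at 251 CPM in S and 373 CPM in G2/M in control (-0.58, -0.63 to -0.52), and at 278 and 400 CPM in sonKD (-0.52, -0.58 to -0.46). H1fx (-0.27 in control, -0.32 in sonKD) and H1f0 (-0.21 and -0.31) were also higher in G2/M, while H2afz, H2afv, H3f3a, H3f3b and H2afy stayed between -0.08 and 0.11 in both libraries. H2afx is the one variant gene in which the stem-loop letters were found, and its S over G2/M ratio had the opposite sign to that of the H1 and H2A sums.

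Within each state the difference between the libraries had the same sign. The cluster sum had a sonKD over control log2 ratio of 0.53 (0.51 to 0.55) in S cells, 0.49 (0.46 to 0.52) in G2/M cells and 0.40 (0.19 to 0.61) in G1 cells. The variant sum had -0.20 (-0.22 to -0.19), -0.18 (-0.20 to -0.17) and -0.16 (-0.24 to -0.08) in the same order. The share of cells called S was 56.9% (55.5 to 58.4) in control and 55.3% (53.4 to 57.3) in sonKD. The share called G1 was 1.76% (1.41 to 2.18) and 4.92% (4.12 to 5.82). These intervals count cells within 1 library and hold no spread between libraries, so the differences in share were not tested.

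A finer view divided the cells into 8 positions by the angle of the S and G2/M scores around their medians; it was chosen after seeing the data. By mean score, positions 2 and 3 were highest for S and position 5 for G2/M in both libraries, and position 7 was lowest for S. In control the cluster sum was highest at position 1, at 1776 CPM, and lowest at position 5, at 1157 CPM, a 1.54-fold range. In sonKD it was highest at position 2, at 2517 CPM, and lowest at position 5, at 1576 CPM, a 1.60-fold range. The variant sum moved by 1.09-fold and 1.11-fold. Hist1h1b ranged 1.67-fold in control and 1.80-fold in sonKD, with its lowest value at position 5 in both, and H2afx 1.86-fold and 1.91-fold, with its highest value at position 5 in both. At each of the 8 positions the cluster sum was higher, and the variant sum lower, in sonKD than in control.

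**Figure D3:**
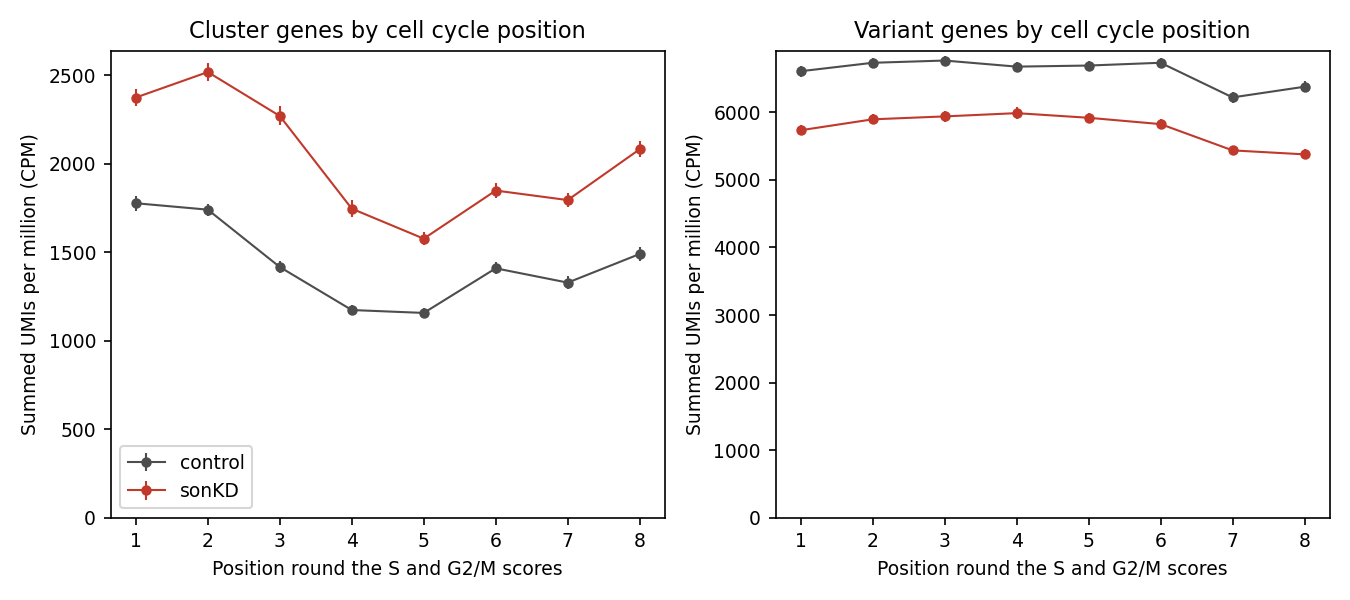
Summed CPM of the cluster genes (left) and the variants (right) at 8 positions around the S and G2/M scores, for control (grey) and sonKD (red), with 95% Poisson intervals. The cluster sum falls to its lowest value at position 5 in both libraries, at 1157 and 1576 CPM, and the variant curves are nearly flat.

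Droplets of 100 to 500 UMIs are near-empty and hold RNA free in the suspension, with 59886 such barcodes in control and 62449 in sonKD. Mitochondrial UMIs made up 0.982% and 0.961% of their counts, against 3.82% and 4.19% in cells. The cluster sum in droplets was 988 CPM in control and 1806 in sonKD, a log2 ratio of 0.87 (0.84 to 0.90), and the variant sum was 8671 and 6864 CPM, a ratio of -0.34 (-0.35 to -0.33). Both ratios have the sign they have in cells and are larger in size; the median of all genes at 10 CPM in droplets was -0.19. By family, droplet ratios were 0.56 for H1, 1.72 for H2A, 0.50 for H2B, 0.71 for H3 and 1.05 for H4. Of 14 cluster genes at 10 CPM in droplets, 8 were past 1.5-fold higher in sonKD and 0 lower, where 1.54% and 9.38% of all genes passed. These 8 were Hist1h2ap, Hist1h2ae, Hist1h3e, Hist1h4d, Hist1h1d, Hist1h1e, Hist1h2ab and Hist1h2bj, of which the last 2 fall outside the rule for named genes and are given because the count holds them. Hist1h3e, Hist1h2ab and Hist1h2bj reached 10 CPM in droplets only through sonKD.

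Hist1h2ap was at 30.8 CPM in control droplets and 159 CPM in sonKD droplets (log2 ratio 2.37, 2.24 to 2.50), close to its cell levels of 28.3 and 148 CPM. Hist1h2ae was at 124 and 367 CPM (log2 ratio 1.57), above its cell levels in both libraries, by 0.82 and 0.97 on the log2 scale. Hist1h4d had a log2 ratio of 1.33 (1.17 to 1.49) in droplets against 0.65 in cells. Its droplet level was close to its cell level in control (24.3 against 22.7 CPM) and higher in sonKD (61.4 against 35.6 CPM). Hist1h3d was nearly absent from droplets, at 3.10 and 3.33 CPM against 21.6 and 17.9 CPM in cells, log2 ratios of droplets over cells of -2.80 and -2.43.

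**Figure D4:**
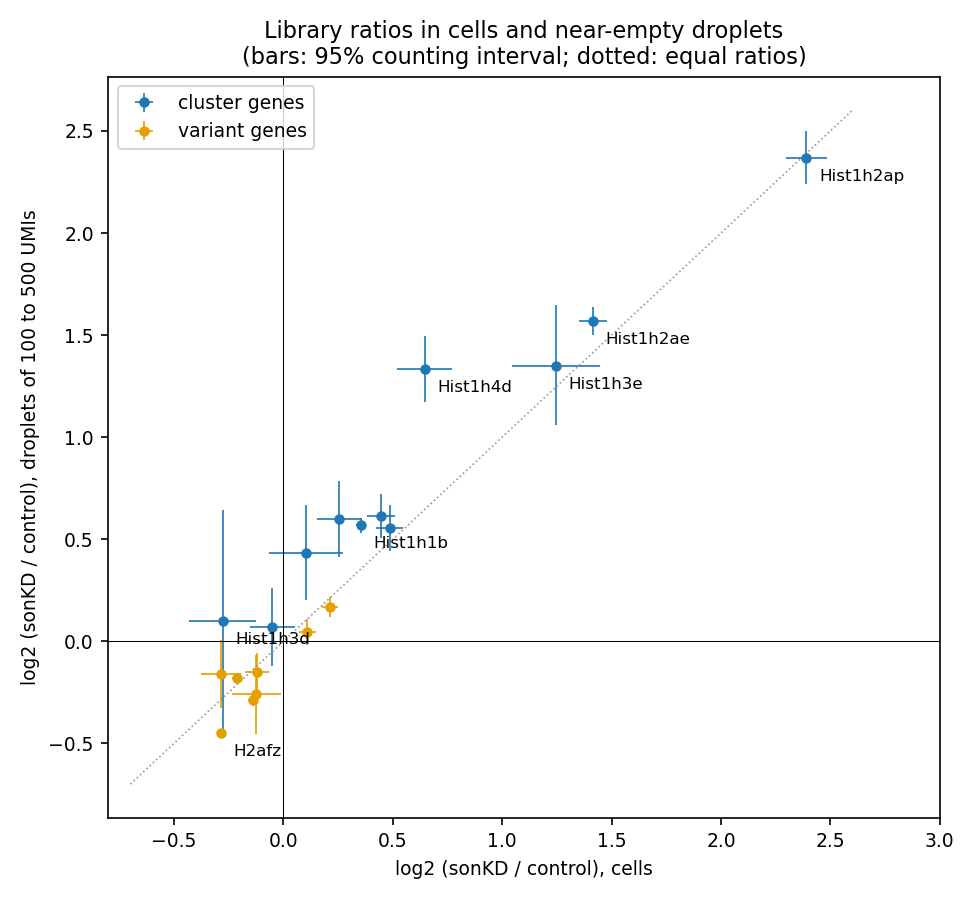
Log2 ratio of sonKD over control in cells (x axis) and in droplets of 100 to 500 UMIs (y axis) for the 19 histone genes at 10 CPM in cells, cluster genes in blue and variants in orange, with 95% counting intervals; the dotted line marks equal ratios. Hist1h2ap lies near the line at 2.39 and 2.37, and Hist1h4d above it at 0.65 and 1.33.

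Against cells of the same library, the cluster sum was lower in droplets (log2 -0.50 in control, -0.15 in sonKD) and the variant sum higher (0.40 and 0.26). The median of all genes at 10 CPM was -0.81 in control and -0.87 in sonKD, so both sums lay above the typical gene. The H1 sum gave the low side, at -0.72 in control and -0.52 in sonKD, while the H2A sum was higher in droplets, at 0.51 and 0.63. Hist1h1b was at 509 and 755 CPM in droplets against 838 and 1071 CPM in cells. Among variants, H2afz was higher in droplets (0.58 and 0.42), and H1fx (-0.82 and -0.69) and H2afx (-0.50 and -0.56) lower. Past 1.5-fold, 2 of 11 cluster genes were higher in control droplets and 5 lower, where 5.64% and 57.9% of all genes passed, and in sonKD 3 of 14 were higher and 3 lower, where 4.45% and 59.6% passed. Of the 19 genes at 10 CPM in cells, Hist1h2ae had the highest and Hist1h3d the lowest ratio to cells in both libraries, and Hist1h2ab, outside these 19, stood at 0.78 in control and 1.29 in sonKD.

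None of the genes at 10 CPM on 2 lists of genes that make and handle histones passed the 1.5-fold limit, which few of all genes passed. A list of 25 symbols for histone RNA expression and 3′ processing, of which 23 were listed, had 21 genes at 10 CPM. None of these was past 1.5-fold in either direction, 2 were above 0 and 19 below, and the median log2 ratio was -0.14, next to -0.12 for all genes. Over all 8063 genes at 10 CPM, 0.992% were past 1.5-fold higher and 1.23% lower, with 2024 above 0 and 6039 below. The counts of the list are therefore near what genes in general gave. Slbp, which binds the stem-loop, was at 143 CPM in control and 119 in sonKD (-0.26, -0.32 to -0.20). Npat, the coactivator of histone genes at the histone locus body, was at 54.8 and 41.8 CPM (-0.39, -0.49 to -0.29), the value farthest from 0 in the list. Upf1, a helicase needed for histone RNA decay, came next, at 49.2 and 39.3 CPM (-0.32, -0.43 to -0.22). Casp8ap2, a histone locus body protein also called FLASH, was at 128 and 119 CPM (-0.11, -0.17 to -0.05). Slbp was also higher in S than in G2/M, at 162 and 124 CPM in control and 136 and 103 CPM in sonKD.

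All 30 listed histone chaperones and deposition factors were at 10 CPM, again with 0 past 1.5-fold, 6 above 0 and 24 below, and a median of -0.09. Of all 8063 genes at that level, 2024 lay above 0 and 6039 below, and 0.992% and 1.23% were past 1.5-fold higher and lower. Nasp, an H1 and H3-H4 chaperone, was at 765 CPM in control and 760 in sonKD (-0.01, -0.03 to 0.01). Hira, the chaperone of H3.3, was at 64.8 and 55.1 CPM (-0.23, -0.32 to -0.15), and Hirip3, which binds Hira, at 124 and 93.4 CPM (-0.41, -0.48 to -0.35), the lowest ratio in the list. Srcap, the catalytic subunit of a complex that inserts H2A.Z, was next, at 46.8 and 38.4 CPM (-0.29, -0.39 to -0.18). The H3-H4 chaperones Asf1a (0.02, -0.06 to 0.11) and Asf1b (0.05, -0.04 to 0.15) had intervals that include 0. Chaf1a, the large subunit of the replication-coupled assembly factor, had a log2 ratio of -0.18 (-0.25 to -0.10).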

How the data were processed

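Single-cell 3′ RNA counts of 1 control and 1 sonKD library were used. The deposited matrices hold raw counts of UMIs per gene and barcode, made with Cell Ranger 7.1.0 on mm10 per the submitters' processing notes; the annotation release and the handling of intronic and multiply mapping reads are not given in the sources used here. The files list all barcodes, and cells and droplets were chosen by the limits in the report. Doublets were kept, with no caller run.

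Counts were summed per library and state and scaled to CPM, with a count under 3 set to 3 in ratios. Intervals are at 95%: exact Poisson for levels, exact conditional binomial for ratios, Clopper-Pearson for shares. Phases were scored with scanpy 1.11.5 on cells of both libraries thinned to 4000 UMIs (seed 1), and phase levels use unthinned counts. Gene structure and stem-loops came from GENCODE M21, which holds 32158 of the 32285 listed identifiers and all 75 members, and promoters from RefSeq. The scripts ran in Python 3.11.15. Only the ratios and their intervals were tested on simulated data, with counts drawn under the counting model that the intervals assume.

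Members and lists were chosen with earlier results of these data known. The division into 8 positions, the ratios within a phase and in barcodes outside the limits, the sums without Hist1h2ap and Hist1h2ae together, the comparison by transcript length and the grouping by 3′ end were chosen after seeing the data. Named genes are all variants, every cluster gene at 10 CPM, Slbp, Npat, Casp8ap2, Nasp, Hira, Asf1a, Asf1b, Chaf1a and the 2 of each pathway list farthest from 0. Alternatives were other limits on UMIs, mitochondrial share, CPM and droplets, removal of the deepest barcodes at 0.8% per 1000 cells, other scalings (TMM of edgeR 4.0.16 among them), other thinning or phase calls, and sums without Hist1h2ap. Sums for 8 primitive endoderm markers were 7.55 and 5.49 CPM, and for 6 trophoblast markers 9.93 and 12.0 CPM.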

Additional observations from a re-analysis of the deposited data

Results flagged for a closer look

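The cluster sum was also higher in sonKD in barcodes that the comparisons leave out. These barcodes come from the same libraries, so they are no independent check. In barcodes with enough UMIs and genes but over 10% mitochondrial UMIs, 625 in control and 1056 in sonKD, the cluster genes were at 678 CPM in control and 970 in sonKD, a log2 ratio of 0.52, while the variant sum had a ratio of -0.02. In barcodes above the droplet limit of 500 UMIs and below the cell limit of 2500, of which there were 5794 and 3052, the cluster genes were at 623 and 943 CPM, a log2 ratio of 0.60, and the variants at -0.21. Both were noted because they lie above the control level in data outside the main measurement, and neither has a replicate check.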

How the results depend on the processing

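No paired analysis was possible because each group held 1 sample, and for the same reason no replicate could be left out. Over 16 sums and counts, 64 of 99 alternative values stayed within the counting interval or 1.5 times the count, 35 moved and none was labelled reversed. That label was open only to ratios whose main interval excluded 0, here and for the single genes below. Counts, and ratios with an interval that includes 0, could not receive it. For sonKD over control, the cluster log2 ratio was 0.43 without Hist1h2ap, 0.58 without mitochondrial and ribosomal protein genes, 0.60 with TMM, 0.49 as a mean per cell and 0.49 from 5000 UMIs, and the variant ratio -0.13 without mitochondrial and ribosomal protein genes, -0.11 with TMM and -0.21 as a mean per cell. The counts past 1.5-fold given here and for S over G2/M below run over all 75 members, variants included. The count past 1.5-fold higher was 2 at 50 CPM and 24 with no minimum, where 1 was lower. With no minimum, any member with more than 3 UMIs on either side of the ratio entered, so counting error is large. The share of all genes was not taken at these settings, so the counts have no background beside them. For S over G2/M, the cluster ratio in control was 0.31 on thinned counts, 0.40 from 5000 UMIs and 0.33 thinned to 2500, and in sonKD 0.38 on thinned counts, 0.39 at 5% mitochondrial UMIs, 0.37 without the deepest barcodes and 0.36 thinned to 2500. The variant ratio was 0.0111 and -0.0143 in control and -0.0559 and -0.0082 in sonKD, at 5% mitochondrial UMIs and thinned to 2500. Past 1.5-fold in S against G2/M, 7 were higher and 1 lower in control with no minimum, and 1 lower from 5000 UMIs or without the deepest barcodes. In sonKD 7 were higher and 2 lower with no minimum, 0 higher at 50 CPM, on thinned counts or thinned to 2500, and 2 higher without the deepest barcodes. For droplets over cells, the control ratios were -0.54 and 0.38 from 5000 UMIs, and the sonKD cluster ratio -0.29 for droplets of 100 to 200 UMIs. Of 342 values of single genes 3 reversed: H2afy S over G2/M in control to 0.012 and H2afz in sonKD to -0.0356 at 5% mitochondrial UMIs, and Hist1h1c in sonKD to -0.032 on thinned counts. The cause was not tested.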

Other observations

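Grouped by the annotated 3′ end, the 20 cluster genes whose transcript ends at the stem-loop summed to 72.2 CPM in control cells and 212 CPM in sonKD cells, a log2 ratio of 1.55 (1.49 to 1.62), of which Hist1h2ap gave 28.3 and 148 CPM. The 21 whose transcript extends past the stem-loop summed to 346 and 522 CPM (0.59, 0.56 to 0.63), and the 11 with a 3′ UTR without it to 124 and 167 CPM (0.43, 0.37 to 0.48). By gene, at a mean of 1 CPM, the median ratios of these 3 kinds were 0.27 over 13 genes, 0.17 over 19 and 0.10 over 7, so the kinds lay closer by gene than by sum. In droplets the same sums had ratios of 1.66, 1.12 and 0.57. The droplet medians by gene, at a mean of 1 CPM, were 0.71 over 13 genes, 0.54 over 18 and 0.75 over 6. The order by sum in droplets thus did not hold by gene. Genes with fewer than 20 bases of 3′ UTR, Hist1h1b among them, had medians of 0.23 over 8 genes in cells and 0.48 over 9 in droplets. For the 3 sums, the S over G2/M log2 ratios were 0.25, 0.18 and 0.40 in control and 0.33, 0.24 and 0.50 in sonKD.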
